A study of Homo sapiens with 40 samples.

Results

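The genes described here are 10 targets of the tumour suppressor p53: CDKN1A, MDM2, GDF15, TP53INP1, BTG2, GADD45A, ZMAT3, CYFIP2, FAS and TIGAR. They were chosen by what they are known for, as p53 targets, and by their measured differences from the control in these arrays, among them a strong fall of TIGAR. Those differences are therefore given as a description, with no p-value. Every probe set that names exactly 1 of these symbols was taken, which gave 31 probe sets for 9 of the 10 genes, out of 19775 genes with such a probe set on the array. BTG2 was matched by none and was not analysed here. All 9 genes passed the filter on dim genes through their brightest probe set, as 11865 of the 19775 genes did.

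The arrays measured RNA of A2058 cells, an established human melanoma line, with 4 arrays labelled as biological replicates in each of 10 groups. Cells of the control group were given the solvent DMSO, and the 9 treated groups were given 1 of 3 inhibitors of phosphoinositide 3-kinase (PI3K), each once and for 24 h. BKM120 (buparlisib) was given at 3 levels, which the labels call IC30, IC50 and IC90 (max). BEZ235 (dactolisib) and GDC0941 (pictilisib, also spelled GCD0941 in the labels) were each used at IC50, IC90 and max. BKM120 and GDC0941 are morpholine-bearing inhibitors of PI3K, whereas BEZ235 is an imidazoquinoline that also inhibits the kinase mTOR. Neither the molar doses nor the response behind the IC levels was stated in the labels, so equal level names do not mean equal doses. A single line was studied, all groups share its genotype, and 50 ng of RNA was amplified before labelling.

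p53 is a transcription factor that accumulates after DNA damage and other stress and switches on genes that stop the cell cycle, start cell death, repair DNA and alter metabolism. MDM2, itself a p53 target, is the ubiquitin ligase that marks p53 for destruction and so closes a feedback loop. Several genes of this set are also known to be driven by other factors, such as the FOXO factors downstream of PI3K and AKT and the stress factor ATF4.

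RefSeq promoter windows (GRCh38.p14, 250 bases before to 50 bases after a transcription start) were given for 8 of the 10 genes, with 15 windows in all. Each window was searched on both strands for the p53 half-site, the FOXO core TGTTTAC, the ATF4 element TGATGNAA and the E-box CACGTG. The half-site was RRRCWWGYYY, where R is A or G, W is A or T and Y is C or T. No mismatch was allowed, so sites that depart from a pattern at any base were not counted. The 250 bases before the start are shown for TIGAR, the gene with the largest difference from DMSO, for CDKN1A, the classical p53 target, and for GDF15 and FAS, the genes with a match. Capitals mark the matched bases, and all 4 genes lie on the + strand.
TIGAR, chr12:4320963-4321212: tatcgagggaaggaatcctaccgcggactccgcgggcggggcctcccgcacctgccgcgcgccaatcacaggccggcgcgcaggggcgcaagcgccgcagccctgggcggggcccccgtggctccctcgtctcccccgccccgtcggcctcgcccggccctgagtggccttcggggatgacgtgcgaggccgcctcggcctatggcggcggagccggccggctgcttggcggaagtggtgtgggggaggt
CDKN1A, chr6:36678464-36678713: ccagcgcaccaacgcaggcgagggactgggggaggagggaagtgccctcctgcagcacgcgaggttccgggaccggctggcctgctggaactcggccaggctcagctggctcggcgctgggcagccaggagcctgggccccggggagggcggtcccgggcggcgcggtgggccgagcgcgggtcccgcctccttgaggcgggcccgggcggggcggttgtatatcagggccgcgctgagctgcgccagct
GDF15, chr19:18385908-18386157: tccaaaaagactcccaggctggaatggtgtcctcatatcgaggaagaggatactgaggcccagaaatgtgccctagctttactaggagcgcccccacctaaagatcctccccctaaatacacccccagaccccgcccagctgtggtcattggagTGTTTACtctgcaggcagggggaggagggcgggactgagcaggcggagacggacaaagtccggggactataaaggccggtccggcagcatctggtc
FAS, the third of its listed starts, chr10:88991181-88991430: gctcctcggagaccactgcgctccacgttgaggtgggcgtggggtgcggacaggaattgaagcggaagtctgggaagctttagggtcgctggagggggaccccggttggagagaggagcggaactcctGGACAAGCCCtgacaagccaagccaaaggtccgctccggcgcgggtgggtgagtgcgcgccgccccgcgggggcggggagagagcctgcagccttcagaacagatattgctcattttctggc
The FOXO core in the GDF15 window lies at bases -96 to -90 from the start, and 3.42% of the 35116 promoter windows in the table hold that core. In the FAS window, which lies inside the gene downstream of its other 2 listed starts, a p53 half-site lies at bases -122 to -113, and 6.63% of all windows hold such a half-site. No exact match to any of the 4 motifs was found in the windows of TIGAR, CDKN1A, MDM2, ZMAT3 or CYFIP2. The other windows of FAS had none either. This does not show that these windows lack a site, since sites with a mismatch were not searched for. The ATF4 element and the E-box, found in none of the members' windows, occur in 3.62% and 7.26% of all windows. These are matches of letters in a short window and say nothing about where a factor binds.

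Signals are the deposited array intensities, which have no unit and were scaled so that the trimmed mean of each array was 150. Differences are between group means of log2(signal + 16), with the standard error (SE) of a model fitted over all 40 arrays. A gene is called higher or lower where its limma p-value, adjusted by the Benjamini-Hochberg method over all 11865 genes, is under 0.05. A fold change on this scale understates changes of dim genes, and the signals of different genes are not compared with each other. One array stood apart and is called the high-ratio array here: replicate 3 of BEZ235 IC50 had a 3' to 5' ratio of the GAPDH control probe sets of 3.44, against 1.05 to 1.26 on the other 39 arrays, and of 27.2 against 1.58 to 2.33 for ACTB. Several results of BEZ235 IC50 are therefore also given without that array. All 6 melanocytic markers measured (SOX10, MITF, PMEL, MLANA, TYR and S100B) were above the filter, with a summed signal of 6880 to 7340 in DMSO and 7620 to 11100 in the treated groups. The markers did not all move alike. At BEZ235 max 3 were called higher and 1 lower, and S100B read 1073.4 to 1199.2 there against 1894.2 to 2182.3 in DMSO. Of 7 markers of blood, epithelial, endothelial, liver and muscle cells, only PECAM1 was above the filter, at 9.5 to 22.5, and their summed signal was 35.8 to 47.6 in DMSO and 30.8 to 149 in the treated groups. The part of either marker list in the results was not tested.

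TIGAR, a fructose-2,6-bisphosphatase that slows glycolysis and feeds the pentose phosphate pathway, had the largest difference from DMSO of the 9 genes. Its signal was 391, 330.1, 325.2 and 373.6 on the 4 DMSO arrays. After BEZ235 it was 184.6, 181.4, 262.4 and 173.6 at IC50, 116.7, 115.5, 96.3 and 98.9 at IC90, and 96.9, 89.6, 80 and 86.6 at max. Every BEZ235 array thus lay below every DMSO array, and the arrays of IC90 and max, which overlap each other, lay below those of IC50. The log2 difference from DMSO was -0.79 (SE 0.10) at IC50, -1.59 at IC90 and -1.83 at max, the last a 3.55-fold lower level. Without the high-ratio array the IC50 difference was -0.92. In RNA of a whole culture, fewer cells that express a gene and less of its RNA per cell cannot be told apart. BKM120 and GDC0941 moved TIGAR less. At BKM120 IC90 (max) the 4 signals were 206.6, 213.5, 230.9 and 257.4, and at GDC0941 max they were 216.5, 185.7, 251.8 and 203.5. Both groups lay below DMSO without overlap, with log2 differences of -0.61 and -0.69 (SE 0.10 for both). GDC0941 IC90 was called lower at -0.28, a call lost when any 1 of DMSO replicates 1 and 4 or GDC0941 IC90 replicates 1, 2 and 3 was left out. BKM120 IC30 (-0.21) and IC50 (-0.23) lay below DMSO on all arrays but were not called, and GDC0941 IC50 (-0.08) overlapped it. Both BKM120 differences were called when the high-ratio array was left out of the whole fit. In the order of mean levels DMSO was highest and BEZ235 max lowest, and neighbours in that order overlapped except GDC0941 IC90 above BKM120 IC90 (max) and BEZ235 IC50 above BEZ235 IC90.

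**Figure D1:**
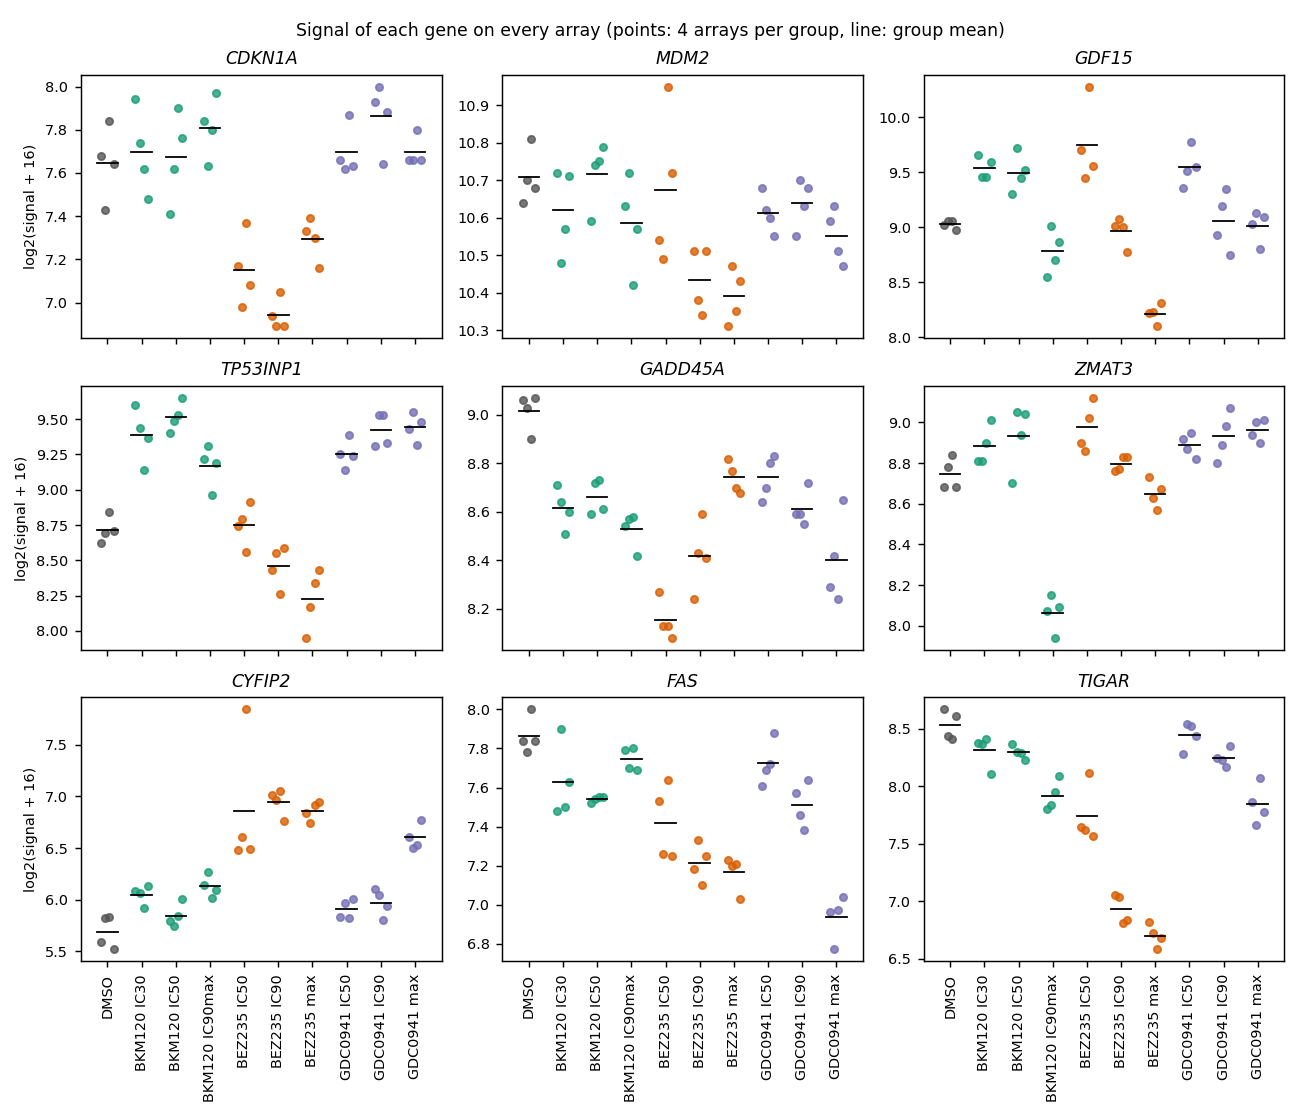
Signal of the brightest probe set of each of the 9 genes on all 40 arrays, as log2(signal + 16), with 1 panel per gene, 1 point per array, a line at each group mean of 4 arrays, and a separate vertical range in each panel. TIGAR steps down from a mean of 8.53 in DMSO to 6.70 at BEZ235 max, CYFIP2 rises from 5.69 to 6.86 there, and ZMAT3 at BKM120 IC90 (max) sits apart at 8.06.

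CDKN1A encodes p21, the cyclin-dependent kinase inhibitor that carries much of the cell cycle arrest by p53. It was called lower at all 3 levels of BEZ235 and at no level of the other compounds. The DMSO arrays read 189, 157, 213.4 and 183.9. The BEZ235 arrays read 127.6, 110.1, 148.9 and 119.3 at IC50, 107.1, 102.4, 116.7 and 102.2 at IC90, and 145.2, 152.2, 141.1 and 126.8 at max. All 12 BEZ235 values lay below the lowest DMSO value, with log2 differences of -0.50, -0.71 and -0.35 (SE 0.10 each), so that the middle level and not the highest had the lowest mean. The 6 groups given BKM120 or GDC0941 overlapped DMSO, with differences of 0.02 to 0.21 and none called. Their array values ranged from 154.6 in BKM120 IC50 to 240.2 in GDC0941 IC90.

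GADD45A, a stress-induced gene whose protein takes part in arrest at G2 and in DNA repair, was the only one of the 9 genes called in the same direction in all 9 treatments. Its DMSO signals were 516.7, 506.8, 460.3 and 522.2, and no treated array reached the lowest of them. The lowest group was BEZ235 IC50, at 291.8, 263.9, 263.5 and 255.3, a difference of -0.86 (SE 0.07). With more BEZ235 the level was closer to the control, at 285.7, 328.4, 370.4 and 324.2 for IC90 (-0.60) and 437.3, 421.7, 398.9 and 394.7 for max (-0.27). For GDC0941 the order was the opposite, with -0.27 at IC50, -0.40 at IC90 and -0.61 at max, where the arrays read 296.2, 327.1, 286.5 and 385.6. BKM120 gave -0.40, -0.35 and -0.48 from its lowest to its highest level, on arrays that read 327.3 to 407.5.

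MDM2, by its brightest probe set, had the narrowest range of group means among the brightest probe sets of the 9 genes, 10.39 to 10.72 on the log2(signal + 16) scale. That probe set read 1583.2, 1649, 1779.9 and 1624.9 in DMSO. It was called lower with BEZ235 IC90, at 1442.8, 1319.4, 1283.6 and 1442.9 (-0.27, SE 0.07), and with BEZ235 max, at 1252.9, 1397.9, 1293.1 and 1363.6 (-0.32). Both groups lay wholly below DMSO. BEZ235 IC50 overlapped it, at 1467.9, 1420, 1958 and 1672.6, the highest of these on the high-ratio array, and its difference of -0.04 was -0.13 without that array. GDC0941 max also lay below DMSO without overlap, at 1402.8 to 1565.2, but its difference of -0.16 was not called. The other 5 treatments overlapped DMSO by this probe set, with differences between -0.12 and 0.01. A dimmer, cross-hybridising MDM2 probe set read 174.5 to 214.9 in DMSO. It lay wholly below DMSO with BKM120, at 139.2 to 170.9 over its levels, and with GDC0941 IC50, at 134.2 to 168.4. Another, at 58.3 to 85.7 in DMSO, lay below it at BKM120 IC30 and GDC0941 IC50. All other readings above the filter overlapped DMSO in these 5 groups.

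Of the genes linked to cell death, FAS, the death receptor on the cell surface, was called lower in 7 of the 9 treatments by its brightest probe set. The DMSO arrays read 212.4, 204.1, 240.3 and 213.3. The lowest values were those of GDC0941 max, at 108.4, 93, 109.8 and 116, a difference of -0.93 (SE 0.09) with no overlap. BEZ235 gave 169.4, 137.3, 183.5 and 136.7 at IC50, 128.7, 145.1, 121 and 135.7 at IC90, and 133.7, 130.6, 131.7 and 114.8 at max, with differences of -0.44, -0.65 and -0.70. All 12 of these lay below DMSO. GDC0941 IC90 was at -0.35 and BKM120 IC50 at -0.32, also without overlap. BKM120 IC30 was called at -0.24 although its replicate 2, at 222.2, lay within the DMSO range, and the call was lost without DMSO replicate 1, 3 or 4, without BKM120 IC30 replicate 1, 3 or 4, and under several processing alternatives. BKM120 IC90 (max), at 190.4 to 207.3, and GDC0941 IC50, at 179.2 to 219.9, overlapped DMSO and were not called. Another probe set above the filter, at 96.9 to 104.8 in DMSO, lay wholly below it in both groups, at 68.3 to 91 and 71.2 to 94.7. A cross-hybridising one read 47.7 to 68.5 at GDC0941 IC50 against 68.7 to 88.7 in DMSO, and overlapped DMSO at BKM120 IC90 (max). The remaining one above the filter overlapped DMSO in both groups.

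TP53INP1, which acts in p53-dependent cell death and in autophagy, moved in opposite directions with the compounds. In DMSO it read 377.4, 398, 441.9 and 402.4. BKM120 raised it to 762.1, 678.1, 549.1 and 645 at IC30, to 659.6, 704.1, 724.2 and 789.9 at IC50, and to 581.4, 620, 480.8 and 567.5 at IC90 (max). GDC0941 raised it to 593.7, 548.4, 656.1 and 586.7 at IC50, to 620.1, 724.6, 724 and 625.9 at IC90, and to 675.1, 731.5, 624.9 and 696.8 at max. All 24 arrays lay above every DMSO array, with differences of 0.67, 0.80 and 0.45 for BKM120 and of 0.54, 0.71 and 0.73 for GDC0941 (SE 0.10 each). BEZ235 IC50 overlapped DMSO at 362.5 to 466.3, a difference of 0.04. BEZ235 IC90, at 289.9 to 368.6, and BEZ235 max, at 230.5 to 327.8, lay wholly below DMSO, with differences of -0.26 and -0.49. The call at BEZ235 IC90 was lost without DMSO replicate 3 or without BEZ235 IC90 replicate 3.

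CYFIP2, a subunit of the WAVE complex that drives actin branching and a known p53 target, was called higher in 5 treatments and lower in none. It is a dim measurement, at 32.3, 40.3, 41 and 29.9 in DMSO. BEZ235 gave 73.5, 81.6, 213.7 and 73.8 at IC50, 113, 108.4, 116.4 and 92.2 at IC90, and 98.9, 90.7, 105.1 and 107.5 at max. Every one of these was above DMSO, and the single high value at IC50 came from the high-ratio array. The differences were 1.17, 1.25 and 1.17 (SE 0.16 each), and 0.84 at IC50 without that array. GDC0941 max also lay above DMSO, at 81.6, 74.8, 76.1 and 92.9 (0.91), whereas GDC0941 IC50 (0.22) and IC90 (0.28) overlapped it and were not called. BKM120 IC30 (0.36), at 44.5 to 53.9, lay above every DMSO array but was not called, and IC50 (0.16) overlapped DMSO and was not called. The IC30 difference was called with the mean over all probe sets, with only the 2 groups fitted, and without the high-ratio array. BKM120 IC90 (max), at 49.1 to 61, was called at 0.44, but not with a pseudocount of 64, after quantile normalization, or without any 1 of DMSO replicates 1 and 4 or BKM120 IC90 (max) replicates 1 and 2.

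GDF15, a secreted stress hormone of the TGF-beta family, was higher at the lower levels of all 3 compounds and not at their highest levels, by its brightest probe set. The DMSO signals were 504.2, 519.2, 519.4 and 488.8, a narrow range. BKM120 gave 795.1, 689.6, 689.8 and 755.1 at IC30 and 615.6, 827.4, 682.7 and 720.6 at IC50. BEZ235 IC50 gave 817.1, 681.1, 1224.6 and 739.4, and GDC0941 IC50 gave 639.1, 712.2, 862.8 and 734.4. These 16 arrays all lay above DMSO, with differences of 0.51, 0.47, 0.71 and 0.52 (SE 0.13 each), and the difference for BEZ235 IC50 was 0.54 without the high-ratio array, which held its highest value. At IC90 both BEZ235 (-0.06) and GDC0941 (0.02) overlapped DMSO. BEZ235 max was called lower, at 282.6, 284, 259 and 301.9 (-0.82), while GDC0941 max, at 429.2 to 544.8 (-0.02), and BKM120 IC90 (max), at 358.3 to 499.5 (-0.25), overlapped DMSO and were not called. The other 2 GDF15 probe sets lay wholly below DMSO in 2 of these groups, at -0.34 and -0.44 with BKM120 IC90 (max) and at -0.30 and -0.32 with BEZ235 IC90. At GDC0941 max the dimmer of the 2 also lay below DMSO, at 70.3 to 87 against 88.9 to 103.9, and the other overlapped it. On the high-ratio array the dimmer one read 58.6, against 129.9 to 150.8 on the other BEZ235 IC50 arrays.

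ZMAT3 is an RNA-binding zinc finger protein that acts on splicing downstream of p53. Its brightest probe set read 392.8, 422.8, 443.3 and 393.6 in DMSO. By that probe set ZMAT3 stood out in a single group. At BKM120 IC90 (max) the arrays read 252.9, 268.1, 228.9 and 256.4, all below every other array of the series, with a difference of -0.68 (SE 0.07). Small rises were called with BEZ235 IC50 (0.23), GDC0941 IC90 (0.19) and GDC0941 max (0.22), and the call for GDC0941 IC90, which overlapped DMSO, was lost without DMSO replicate 1, 2 or 4 and without GDC0941 IC90 replicate 2, 3 or 4. The other 5 treatments were not called, at differences between -0.09 and 0.19. At GDC0941 max another probe set above the filter read 227.7 to 280, against 132.2 to 170.4 in DMSO. A further one read 286.5 to 311.3 there, against 224.6 to 238.4, and the remaining one above the filter overlapped DMSO.

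Counted by treatment, 4 of the 9 genes were called with BKM120 IC30, 4 with IC50 and 5 with IC90 (max), where 21.2%, 19.9% and 34.5% of all tested genes were called. BEZ235 called 7, 7 and 8 of the 9 from its lowest to its highest level, against 45.5%, 55.0% and 57.9% of all genes. GDC0941 called 3, 5 and 6, against 16%, 25.2% and 43.9%. The genes were chosen with these differences known, so the counts are a description. With the high-ratio array left out of the whole fit, the counts were 6, 6 and 6 with BKM120 and 3, 6 and 7 with GDC0941. Those with BEZ235 stayed at 7, 7 and 8, and the share of all genes was not counted for that fit. Leaving out DMSO replicate 1 or 4, or GDC0941 IC90 replicate 2 or 3, lowered the GDC0941 IC90 count from 5 to 3. With BEZ235 the calls ran mainly downward, with 4 lower and 3 higher at IC50, 6 and 1 at IC90, and 7 and 1 at max, the 1 higher gene being CYFIP2. Of the 3 higher at IC50, ZMAT3 (0.23) was not called when only the arrays of the 2 groups were fitted. Over all tested genes the shares ran the other way, with 19.2% lower and 26.3% higher at IC50, 24.1% and 30.8% at IC90, and 25.2% and 32.7% at max. With BKM120 the calls were 2 lower and 2 higher at IC30 and at IC50, and 3 lower and 2 higher at IC90 (max). Of all genes 8.17% were lower and 13.1% higher at IC30, 7.34% and 12.5% at IC50, and 17.3% lower and 17.3% higher at IC90 (max). GDC0941 had 1 lower and 2 higher at IC50, 3 and 2 at IC90, and 3 and 3 at max. The shares of all genes with GDC0941 were 6.15% lower and 9.81% higher at IC50, 9.97% and 15.2% at IC90, and 18.4% and 25.5% at max. The median difference of the 9 genes was -0.04, -0.27 and -0.35 with BEZ235, 0.05, 0.02 and -0.12 with BKM120 and 0.05, 0.02 and -0.02 with GDC0941, where that of all tested genes lay between 0.00 and 0.04.

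**Figure D2:**
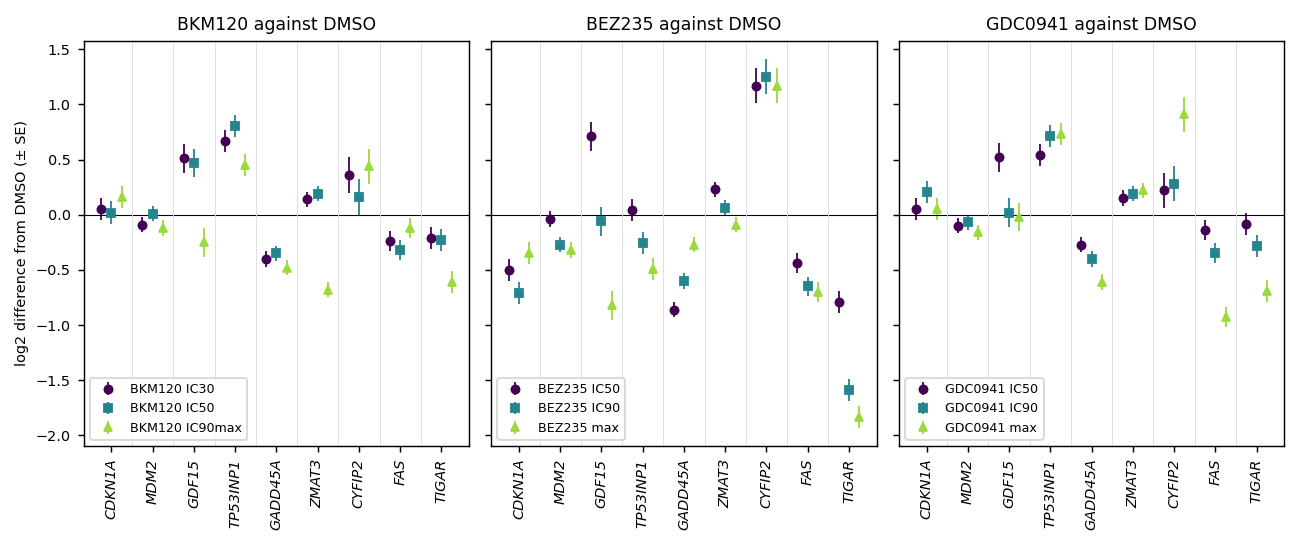
Difference from DMSO of each gene on the log2(signal + 16) scale, with 1 panel per compound, 1 symbol per level, and bars of 1 SE to either side from the model over 40 arrays, 4 per group. CDKN1A lies below 0 in the BEZ235 panel alone (-0.50, -0.71 and -0.35), TP53INP1 lies above 0 with BKM120 and GDC0941, and TIGAR runs down to -1.83 with BEZ235.

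The compounds were compared with each other at IC50 and at IC90, in 6 comparisons, with BKM120 IC90 (max) taken as its IC90. These tests use the same treated arrays as the differences from DMSO that were known when the genes were chosen, so they are not independent evidence. At IC50, GDC0941 and BKM120 were not told apart at any of the 9 genes after adjustment, and 0.598% of all genes (71 of 11865) were called between them. Without adjustment, TP53INP1 (-0.26, 95% interval -0.46 to -0.07) and FAS (0.18, interval 0.01 to 0.36) had a limma p under 0.05 and no overlap of arrays, and fitted on the arrays of the 2 groups alone 1 gene, TP53INP1, was called. The intervals of the GDC0941 minus BKM120 difference reached from -0.19 to 0.23 for CDKN1A, -0.05 to 0.35 for TIGAR, -0.26 to 0.38 for CYFIP2 and -0.21 to 0.31 for GDF15, so differences within those bounds remain possible.

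BEZ235 IC50 differed from BKM120 IC50 at 5 of the 9 genes, where 32.2% of all genes were called, and from GDC0941 IC50 at 6, where 33.9% were. In both comparisons CDKN1A, TP53INP1, GADD45A and TIGAR were lower with BEZ235 and CYFIP2 was higher. The CDKN1A difference was -0.53 from BKM120 (SE 0.10, limma adjusted p = 1.7e-04) and -0.55 from GDC0941 (adjusted p = 7.9e-05), with no overlap of arrays. That of TIGAR was -0.56 (adjusted p = 4.6e-05) and -0.71 (adjusted p = 7.9e-07). CYFIP2 was higher by 1.01 (adjusted p = 9.1e-06) and 0.95 (adjusted p = 1.6e-05), values that were 0.68 and 0.62 without the high-ratio array and were no longer called when only the arrays of the 2 groups were fitted. FAS, lower with BEZ235 than with GDC0941 (-0.30, adjusted p = 0.00785), overlapped between them and also lost its call in the fit of 2 groups. GDF15, at intervals of -0.01 to 0.50 and -0.06 to 0.45, MDM2 and ZMAT3 were called in neither comparison. Without the high-ratio array the GDF15 differences of 0.25 and 0.20 were 0.07 and 0.02.

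At IC90, TIGAR was lower with BEZ235 than with BKM120 (-0.98, adjusted p = 2.0e-10) and than with GDC0941 (-1.31, adjusted p = 2.0e-13), in each case with all 4 arrays below the other 4. The differences of CDKN1A from BKM120 and GDC0941 were -0.87 (adjusted p = 9.6e-09) and -0.92 (adjusted p = 3.6e-09), and those of TP53INP1 were -0.71 (adjusted p = 1.3e-07) and -0.97 (adjusted p = 2.5e-10). CYFIP2 was higher by 0.81 (adjusted p = 6.1e-05) and 0.97 (adjusted p = 4.9e-06), and FAS was lower, at -0.53 (adjusted p = 5.5e-06) and -0.30 (adjusted p = 0.00606). In all, 6 of the 9 genes were called between BEZ235 and BKM120, with 45.2% of all genes, and 7 between BEZ235 and GDC0941, with 43.0%. GADD45A, at -0.11 from BKM120 (interval -0.26 to 0.04), was not called there. The 7 include MDM2 (-0.20, adjusted p = 0.0217), lost without BEZ235 IC90 replicate 2 or 3 or GDC0941 IC90 replicate 2 or 4, and GADD45A (-0.20, adjusted p = 0.0316), lost without BEZ235 IC90 replicate 1, 2 or 4 or GDC0941 IC90 replicate 4.

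GDC0941 IC90 and BKM120 IC90 (max) differed at 4 of the 9 genes, with 30% of all genes called. ZMAT3 accounted for the largest of these, 0.87 higher with GDC0941 (adjusted p = 1.6e-12, no overlap), and it was likewise 0.74 higher with BEZ235 IC90 than with BKM120 (adjusted p = 5.5e-11). TIGAR was 0.33 higher with GDC0941 than with BKM120 (adjusted p = 0.00962). TP53INP1 (0.26, adjusted p = 0.041) and FAS (-0.23, adjusted p = 0.0414) were near the threshold. The count fell from 4 to 2 without BKM120 IC90 (max) replicate 1 or 3, without GDC0941 IC90 replicate 2 or 3, and with no filter on dim genes. CDKN1A (interval -0.16 to 0.26), MDM2 (-0.09 to 0.20) and CYFIP2 (-0.48 to 0.17) were not told apart. GDF15 (0.27, interval 0.02 to 0.53) was not called after adjustment, and was called without BKM120 IC90 (max) replicate 2 or GDC0941 IC90 replicate 4.

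**Figure D3:**
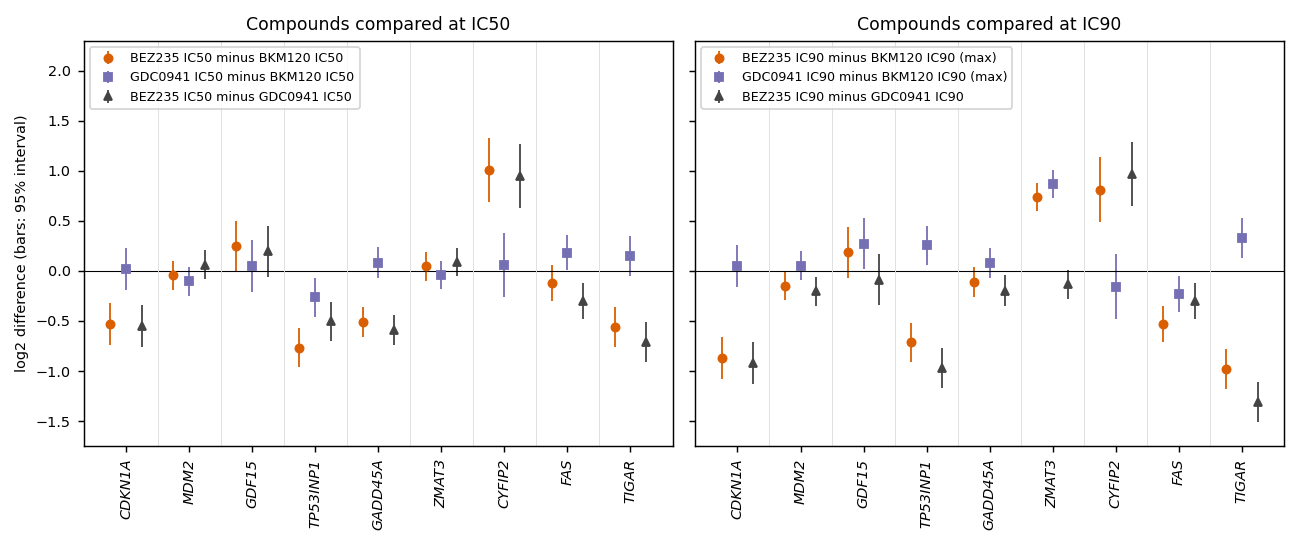
Differences between compounds for each gene on the log2(signal + 16) scale at IC50 (left) and IC90 (right), with bars for the 95% interval from the model over 40 arrays, 4 per group. GDC0941 minus BKM120 lies between -0.26 (TP53INP1) and 0.18 (FAS) at IC50, BEZ235 lies below either compound for CDKN1A over both levels (-0.53 to -0.92), and ZMAT3 at IC90 is separated from BKM120 by 0.74 and 0.87.

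Between the highest and the lowest level of a compound, TIGAR and GDF15 were lower at the highest level for all 3 compounds. The tests between levels also use the treated arrays whose differences from DMSO were known when the genes were chosen. They are therefore not independent evidence. The GDF15 difference was -0.76 with BKM120 (adjusted p = 7.6e-06), -1.53 with BEZ235 (adjusted p = 3.8e-12) and -0.54 with GDC0941 (adjusted p = 0.00118). That of TIGAR was -0.40 (adjusted p = 0.00158), -1.04 (adjusted p = 1.2e-10) and -0.61 (adjusted p = 9.5e-06). All of these 6 differences were without overlap. The other called gene with BKM120 was ZMAT3, at -0.82 (adjusted p = 6.9e-12), which made 3 of 9 with 34.0% of all genes called. GDC0941 had 5 of 9, with 29.6% of all genes, among them FAS at -0.79 (adjusted p = 1.1e-08), CYFIP2 at 0.69 (adjusted p = 9.0e-04) and GADD45A at -0.34 (adjusted p = 4.7e-04). BEZ235 had 7 of 9, with 39.1% of all genes, and here GADD45A was higher at max than at IC50, by 0.59 (adjusted p = 5.3e-08). MDM2 (-0.28, adjusted p = 0.00181), FAS (-0.26, adjusted p = 0.0197) and ZMAT3 (-0.33, adjusted p = 2.7e-04) were lower at BEZ235 max than at IC50, as was TP53INP1 (-0.53, adjusted p = 3.4e-05). The call of MDM2 was lost when only the arrays of the 2 groups were fitted, and that of ZMAT3, at -0.09, with the mean over all its probe sets. FAS was also lost without BEZ235 IC50 replicate 1 or BEZ235 max replicate 4. Without the high-ratio array FAS was no longer called, at -0.18, and CYFIP2 was called at 0.34 where it had been at 0.01. GDF15, TIGAR and MDM2 were still called between these BEZ235 levels without it, at -1.35, -0.91 and -0.19.

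The 31 probe sets let most of the genes be read more than once. MDM2 has 10, of which 5 lie above the filter, FAS and ZMAT3 have 5 with 4 above it, GDF15 has 3 above it, TP53INP1 has 3 with 1 above it and CYFIP2 has 2 with 1 above it. CDKN1A, GADD45A and TIGAR each have a single one, so their values have no second reading. In none of the 18 comparisons were probe sets of the same gene called in opposite directions, when each was tested among all 41091 single-symbol probe sets without a filter. At BEZ235 max 3 of the 31 were called higher and 17 lower, where 31.2% of all probe sets were called, 16.4% higher and 14.8% lower.

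The 3 probe sets of GDF15 gave -0.82, -0.91 and -0.84 at BEZ235 max, and the 4 brighter ones of FAS gave -0.73 to -0.93 at GDC0941 max. For CYFIP2 the second, dim probe set was higher by 0.94 at BEZ235 max, against 1.17 for the brighter. For MDM2 all 5 probe sets above the filter were called lower at BEZ235 max, from -0.32 for the brightest to -0.94, and at BEZ235 IC50 these same 5 ran from -0.04 to -0.84. The 5 below the filter were not called at BEZ235 max, at -0.26 to 0.10. The readings of ZMAT3 differed as well. Its brightest probe set was at -0.09 with BEZ235 max and was not called, while another above the filter was called higher by 0.51 there and by 0.60 and 0.62 at BEZ235 IC50 and IC90. Both were called lower at BKM120 IC90 (max), at -0.68 and -0.41. The 2 further TP53INP1 probe sets, at mean signals of 2.34 and 1.64, were at 0.10 and -0.01 with BEZ235 max and were not called. With the mean over all probe sets of a gene, TP53INP1 was higher by 0.31 instead of 0.80 at BKM120 IC50, and ZMAT3 was at -0.31 instead of -0.68 at BKM120 IC90 (max). For the dim CYFIP2 a pseudocount of 64 in place of 16 gave 0.72 instead of 1.17 at BEZ235 max.

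**Figure D4:**
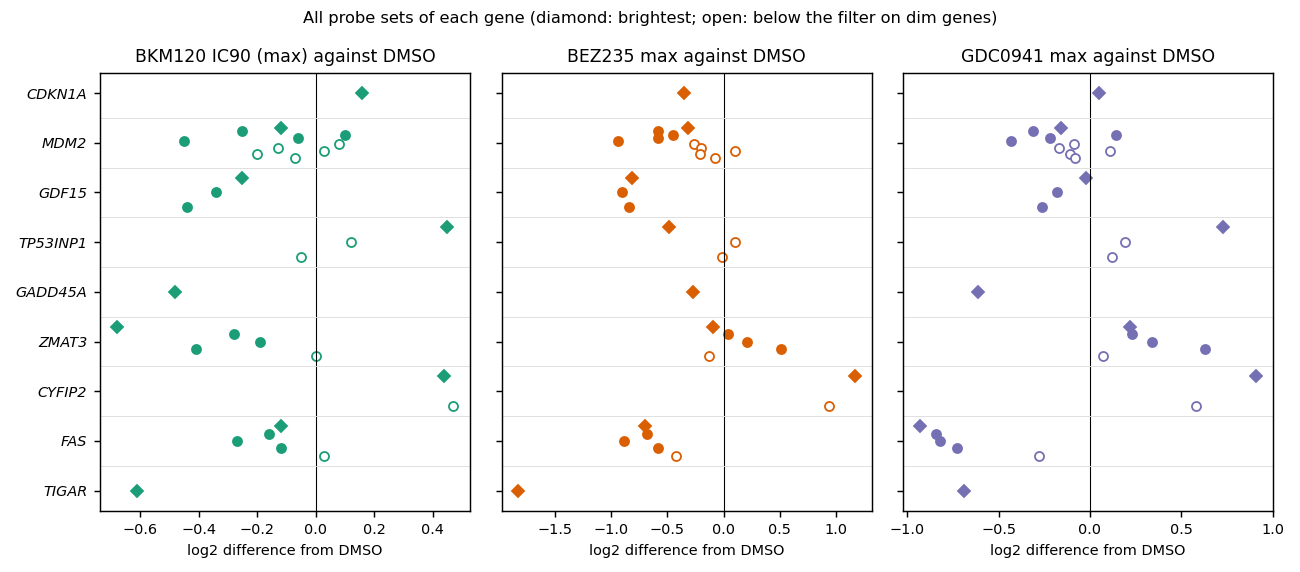
Difference from DMSO of all 31 probe sets at the highest level of each compound, on the log2(signal + 16) scale, with diamonds for the brightest probe set of a gene, open circles for those below the filter on dim genes, and a separate horizontal range in each panel. At BEZ235 max the filled symbols of GDF15 lie close together (-0.82 to -0.91), and those of MDM2 (-0.32 to -0.94) and ZMAT3 (-0.09 to 0.51) are spread out.

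Across the 10 group means, taken from the same 40 arrays, the patterns of some of these genes ran close together. MDM2 and TIGAR had a Pearson r of 0.89, CYFIP2 and TIGAR of -0.89, CDKN1A and CYFIP2 of -0.81, and CDKN1A and TP53INP1 of 0.78. GADD45A and ZMAT3 stood apart from most, with r of 0.35 and 0.18 to TIGAR. Among the 1116 other tested genes whose group means span at least 1 on the log2 scale, those most like TIGAR were FKBP14 (r = 0.991), PGF (0.989), LIG4 (0.987), HYOU1 (0.987) and CRY1 (0.986). FKBP14 and HYOU1 encode proteins of the endoplasmic reticulum, PGF a placental growth factor, LIG4 a DNA ligase of end joining and CRY1 a clock repressor. At BEZ235 max their log2 differences from DMSO were -1.15 to -1.48. The 5 most like CDKN1A, among 1117 genes, had lower likeness: NCAM1 (r = 0.928), COL8A1 (0.922), SLC5A3 (0.920), TMEM169 (0.902) and CLCN5 (0.901). These are descriptions over 10 points.

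A list of 48 further p53 targets was measured beside these genes. Of them 44 were on the array and 37 were tested, and the others were not analysed here. At the highest levels 2 rose and 12 fell with BKM120, 4 rose and 12 fell with BEZ235, and 9 rose and 10 fell with GDC0941, that is 37.8%, 43.2% and 51.4% of the list beside 34.5%, 57.9% and 43.9% of all genes. The medians of the list were -0.16, -0.09 and -0.06, where those of all tested genes were 0.00, 0.04 and 0.03. At the IC50 of BKM120 and GDC0941 more of them rose than fell, 8 against 3 and 6 against 2, and with BEZ235 IC50 6 rose and 15 fell. These make 29.7%, 21.6% and 56.8% of the list, where 19.9%, 16% and 45.5% of all genes were called, and among all genes more rose than fell in each of these 3 groups. With no filter on dim genes the GDC0941 IC50 count was 3 against 2. The BEZ235 IC50 count was 4 and 2 when only the arrays of DMSO and BEZ235 IC50 were fitted.

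The genes named from this list and the lists below, except MDM4, were picked because they were called at the highest level of a compound. Their adjusted p-values against DMSO are therefore a description and not independent evidence. PMAIP1, which encodes the BH3-only protein NOXA, fell in all 9 treatments, by 0.78 at BKM120 IC90 (max), 1.02 at BEZ235 max and 0.80 at GDC0941 max (SE 0.12 each, limma adjusted p = 1.9e-06, 3.1e-09 and 8.3e-07). SESN2, a sestrin that restrains mTORC1, fell by 0.64, 1.10 and 0.73 at the same 3 levels (adjusted p = 7.2e-07, 9.3e-13 and 3.5e-08). SESN1 fell with BKM120 (-0.45) and BEZ235 (-0.78) at their highest levels and was at -0.17 with GDC0941 max, not called. ASCC3, a helicase, fell by 0.49, 0.78 and 0.52, and AEN, a nuclease of apoptosis, fell by 0.80 with BEZ235 max and 0.53 with GDC0941 max. APAF1, the core of the apoptosome, fell by 0.72 and 0.33 in those 2 groups and was at 0.00 with BKM120 IC90 (max). LIF, a cytokine, fell by 0.83 with GDC0941 max, and SCO2, an assembly factor of cytochrome c oxidase, fell by 0.61 with BKM120 IC90 (max) and was at -0.14 with BEZ235 max and -0.12 with GDC0941 max, not called.

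Fewer targets rose. ANKRA2, an ankyrin repeat protein, rose in 8 of the 9 treatments, by 0.55, 0.81 and 0.55 at the highest levels of BKM120, BEZ235 and GDC0941 (adjusted p = 4.0e-05, 1.1e-08 and 2.7e-05). XPC, the damage sensor of nucleotide excision repair, rose by 0.50 with BEZ235 max and 0.34 with GDC0941 max. BAX, the pore-forming effector of mitochondrial cell death, rose by 0.39 with BKM120 IC90 (max) and 0.28 with GDC0941 max and was at -0.18 with BEZ235 max, not called. NINJ1, a membrane protein of lytic cell death, fell with BKM120 IC90 (max) (-0.44) and BEZ235 max (-0.32) and rose with GDC0941 max (0.53). PANK1, a kinase of coenzyme A synthesis, had the same signs at -0.44, -0.37 and 0.28.

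**Figure D5:**
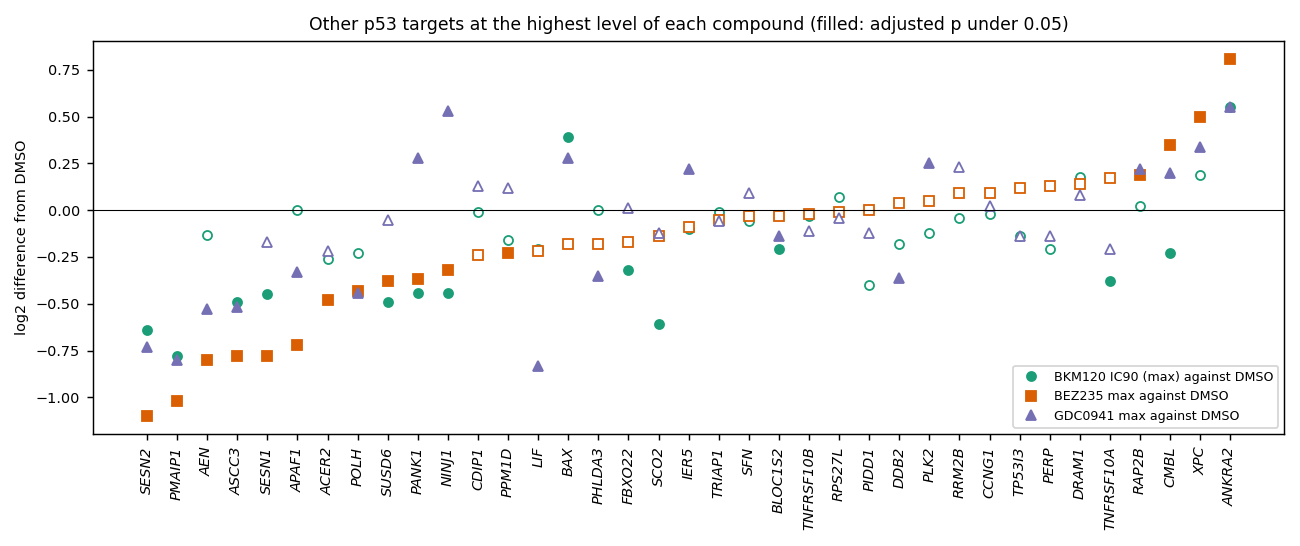
Difference from DMSO of the 37 further p53 targets tested, at the highest level of each compound, on the log2(signal + 16) scale, ordered by the BEZ235 value, with filled symbols for an adjusted p under 0.05. SESN2 and PMAIP1 lie lowest with BEZ235 (-1.10 and -1.02) and are filled for all 3 compounds, and ANKRA2 lies highest at 0.81.

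Of 9 listed members of the p53 family and its regulators 7 were tested, and the others were not analysed here. With BKM120 IC90 (max) 3 rose, namely MDM4, the partner of MDM2 (0.59, SE 0.20, adjusted p = 0.024), the checkpoint kinase CHEK2 (0.32) and the damage kinase ATM (0.26). With BEZ235 max 2 rose and 3 fell: CDKN2A (0.57) and ATM (0.29) were higher, and the kinase HIPK2 (-0.56), the p53 relative TP73 (-0.49) and CHEK2 (-0.27) were lower. With GDC0941 max ATM rose by 0.48 and the deubiquitinase USP7 fell by 0.24. The called shares of the list were 42.9%, 71.4% and 28.6%, beside 34.5%, 57.9% and 43.9% of all genes. MDM4 was at 0.23 and 0.05 with BEZ235 max and GDC0941 max and was not called.

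Of 14 listed relatives and partners of the 10 genes, 10 were tested, and at the highest levels 3 rose and 1 fell with BKM120, 4 rose and 2 fell with BEZ235, and 4 rose and 2 fell with GDC0941. These are 40%, 60% and 60% of the list, beside 34.5%, 57.9% and 43.9% of all genes. CDKN1B, which encodes the cell cycle inhibitor p27, rose by 0.54, 0.28 and 0.31 at the 3 highest levels (adjusted p = 6.9e-09, 2.1e-04 and 6.7e-05), and CDKN1C, which encodes p57, rose by 0.31 with BEZ235 max and 0.46 with GDC0941 max. GADD45B, a relative of GADD45A, rose by 1.01 with BEZ235 max (SE 0.14, adjusted p = 1.2e-07) and was not called with BKM120 IC90 (max) (0.20) or GDC0941 max (0.16). TP53INP2 rose by 0.73 with GDC0941 max (adjusted p = 3.5e-06) and was at 0.04 and 0.03 with the other 2. BTG1 rose by 0.31, 0.44 and 0.32 and BTG3 fell by 0.30, 0.69 and 0.59, both being relatives of BTG2. FADD, the adaptor of the FAS receptor, fell by 0.49 with BEZ235 max and 0.26 with GDC0941 max.

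Of 15 listed genes that make or remove fructose 2,6-bisphosphate, start glycolysis or run the pentose phosphate pathway, the routes on which TIGAR acts, 13 were tested. At the highest levels none rose and 2 fell with BKM120, 5 rose and 2 fell with BEZ235, and 2 rose and 2 fell with GDC0941. These are 15.4%, 53.8% and 30.8% of the list, below the 34.5%, 57.9% and 43.9% of all genes. HK2, a hexokinase, fell by 0.58, 0.52 and 0.43 (adjusted p = 5.3e-07, 1.2e-06 and 4.9e-05). PFKFB2, an enzyme that makes fructose 2,6-bisphosphate, rose by 0.60 with BEZ235 max (adjusted p = 5.4e-04) and 0.71 with GDC0941 max (adjusted p = 1.2e-04). PGLS, of the oxidative pentose phosphate pathway, rose by 0.45 and 0.30 in the same groups. With BEZ235 max PFKFB4 rose by 0.50, PFKM by 0.25 and TKT by 0.24, and TALDO1 fell by 0.15.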

How the data were processed

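RNA of A2058 cells was measured on 1-colour oligonucleotide arrays with 54675 probe sets, 4 arrays in each of 10 groups, grouped by the compound and level in their titles. The deposited values are intensity values on a linear scale, made by the authors with MAS5 (its version was not stated), per the submitters' processing notes. Each array had a mean of 150 after its highest and lowest 2% of probe sets were left out, so the authors had scaled each array by a single factor. Arrays have no read depth, and their number limits the precision.

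Probe sets were named from the platform annotation, with 41091 carrying 1 gene symbol, 1801 several and 11721 none, besides 62 controls, and 41037 of the 41091 matched a RefSeq gene ID. Values were taken as log2(value + 16) with no further normalization. For each gene the brightest probe set was used, cross-hybridising designs only where a gene had no other, and the dimmest 40% of genes by mean signal (under 13.6) were left out of the tests. R 4.3.3 and limma 3.58.1 fitted 10 group means over 40 arrays (30 residual degrees of freedom, variance trend), and each of 18 comparisons had its own Benjamini-Hochberg adjustment. The procedure was tested on simulated data. For a single line, p-values set a difference against the spread between cultures of the same group, estimated over all 10 groups. The labels give the independence of these cultures only as biological replicates.

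The genes, the gene lists and the tests were chosen with earlier results of these data known. Named from the other lists were MDM4 and, at the highest level of each compound, up to 6 called genes per direction and list. Listed genes with no probe set of their own symbol are not reported here. The alternatives were other pseudocounts, filters, normalization and summaries of probe sets, fits of the groups compared alone, and a replicate block. Each array of the 2 groups compared was also left out in turn, and the high-ratio array was left out of all comparisons.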

Additional observations from a re-analysis of the deposited data

Results flagged for a closer look

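In 6 of 90 groups of 4 arrays, 1 per gene and group, a single array lay far from the other 3, with a gap, as a share of the group's range, beyond Dixon's 95% critical value for 4 samples. Chance alone gives about 1 such group in 20. CDKN1A read 219 on replicate 3 of GDC0941 IC50, where the others read 181.1 to 186.8, and 208 on replicate 3 of GDC0941 max, where they read 185.7 to 186.9. CYFIP2 read 214 on replicate 3 of BEZ235 IC50, the array with the high 3' to 5' ratios, where the others read 73.5 to 81.6. TIGAR read 262 on that array, where the others read 173.6 to 184.6. TIGAR also read 260 on replicate 4 of BKM120 IC30, where the others read 315 to 324.3. FAS read 115 on replicate 4 of BEZ235 max, where the others read 130.6 to 133.7.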

How the results depend on the processing

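Of the 162 differences of the 9 genes over 18 comparisons, 92 were called, and none changed sign while called under any alternative run. Of the 92 calls 79 were kept under every processing alternative in which they were tested. The 10 calls of CYFIP2 were not tested with the filter at the 60th percentile. Leaving out each array of the 2 groups compared in turn kept 82. Between GDC0941 and BKM120 at IC50 the count of called genes went from 0 to 1 when only the arrays of the 2 groups were fitted. Between GDC0941 IC90 and BKM120 IC90 (max) it went from 4 to 2 with no filter on dim genes. Over the fits without 1 array of these 2 groups that count ranged from 2 to 5. For GDC0941 IC90 against DMSO the fits without 1 array of those 2 groups gave 3 to 5 genes. The fit without the high-ratio array, which is in neither group, gave 6. With the replicate number as a block, 2 of the 92 calls were lost and 1 was gained: FAS at BKM120 IC30 against DMSO (-0.24) and at GDC0941 IC90 against BKM120 IC90 (max) (-0.23) were lost, and ZMAT3 at BKM120 IC50 (0.19) was gained. Arrays with the same number did not deviate together, with a mean correlation of -0.01 over 180 pairs against 0.00 for other pairs, and 5 of 40 arrays correlated best with their own number, so the numbers were not taken as pairs. Leaving the high-ratio array out of the fit of all comparisons lost 1 call and gained 11. Gained against DMSO were CYFIP2 at BKM120 IC30 and GDC0941 IC90, TIGAR at BKM120 IC30 and IC50, and MDM2 at GDC0941 max. ZMAT3 at BKM120 IC50 and GDF15 at BKM120 IC90 (max) were gained as well. Quantile normalization lost 3 calls and gained 3, and the median of all genes stayed within 0.05 of 0. A signal near background limits CYFIP2 and the 10 probe sets below the filter, whose small differences cannot be read.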
